A study of Mus musculus with 235 samples.

Results

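Messenger RNA of 6 genes of thyroid hormone handling in the brain was followed through 8 punched brain regions of mice given dexamethasone or vehicle. They are Dio2, Slco1c1, Thra, Thrb, Crym and Hr, 6 of the 27998 genes in the count table, and each was matched by symbol to a single identifier. The set was chosen by the measured change of Dio2 after dexamethasone, which varied between regions, so the treatment values of Dio2 are given as a description without a test. The other 5 genes were named for their roles, with earlier results of these data known. Animals were adult male C57Bl/6 mice, 3 months old, of which 15 received dexamethasone, a synthetic glucocorticoid, at 10 mg/kg intraperitoneally, and 15 received 0.9% saline, the vehicle. Tissue was collected after 4 h from perfused brains. The regions are called PFC, dCA1, vCA1, dDG, vDG, CER, AMY and PVN, as in the labels. Each region and arm had 13 to 15 libraries, and each library came from 1 animal.

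Thyroid hormone reaches the brain mostly as the prohormone thyroxine (T4), which crosses the blood-brain barrier through membrane transporters. Type 2 deiodinase, the enzyme made from Dio2, is found mainly in astrocytes and in tanycytes of the hypothalamus, and removes an iodine from T4 to give the active hormone T3. T3 then enters neurons and other cells, binds the nuclear receptors made from Thra and Thrb, and changes the transcription of target genes, while mu-crystallin, the product of Crym, holds T3 in the cytosol.

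Dio2 (ENSMUSG00000007682) lies on chromosome 12 at 90724554-90738438 of the mm10 build, on the minus strand. Slco1c1 (ENSMUSG00000030235), which encodes a T4 transporter of brain endothelium and astrocytes, lies on chromosome 6 at 141524368-141570177 on the plus strand. The 250 bases before the RefSeq start of each gene (GRCm38.p6) are shown because the values of these genes differed between arms in opposite directions in the same animals. RefSeq promoter sequence was matched for 3 of the 6 genes, namely Dio2, Slco1c1 and Thrb. The Dio2 bases run 5′ to 3′ on the minus strand from chr12:90739039-90739288, and those of Slco1c1 on the plus strand from chr6:141524104-141524353. Capitals mark the cAMP response element, TGACGTCA, which reads the same on both strands.

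Dio2 promoter: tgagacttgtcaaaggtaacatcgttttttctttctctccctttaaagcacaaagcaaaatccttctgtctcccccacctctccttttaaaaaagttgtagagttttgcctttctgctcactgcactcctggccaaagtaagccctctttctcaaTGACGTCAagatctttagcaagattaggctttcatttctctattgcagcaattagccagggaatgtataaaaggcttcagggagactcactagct
Slco1c1 promoter: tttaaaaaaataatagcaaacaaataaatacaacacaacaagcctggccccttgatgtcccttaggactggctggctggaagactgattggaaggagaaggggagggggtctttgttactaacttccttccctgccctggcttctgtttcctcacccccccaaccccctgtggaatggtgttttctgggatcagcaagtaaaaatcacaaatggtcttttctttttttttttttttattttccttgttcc

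The cAMP response element of Dio2 occupied bases 95 to 88 before the start. The same 8 letters occurred in 1.55% of 32851 promoter windows of 250 bases and were not in the Slco1c1 window. Neither the Dio2 nor the Slco1c1 window held the palindromic glucocorticoid response element, found in 0.00913% of windows, its single arm TGTTCT, which is contained in the palindrome and was found in 16.1%, or AGGTCA, the core of thyroid hormone response elements, found in 14.0%, on either strand. Thrb, which did not pass the test in any region, had 2 RefSeq windows, of which 1 held AGGTCA and the other held TGTTCT on each strand. The RefSeq start of Dio2 lies upstream of the 5′ end that the count table gives.

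Library totals were 268538 to 1451422 counts, with a median of 742957. Levels are given as CPM, which are counts scaled to a library total of 1000000 after trimmed mean of M values (TMM) scaling over all libraries, and each region's comparison used edgeR's quasi-likelihood test with p-values adjusted over all genes tested in that region. Gabra6, a gene of cerebellar granule cells, was at 0 in the vehicle libraries of CER. It exceeded 10 CPM in 10 libraries, which were 4 vehicle and 3 dexamethasone libraries of vDG, 1 vehicle library of vCA1 and 1 dexamethasone library each of CER and PFC, and reached 334 CPM in vDG. Values without these libraries are given where they end a call. The tissue was bulk, so fewer cells of a type and less RNA per cell cannot be told apart.

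In vehicle animals, Dio2 messenger RNA was most abundant in PFC and least abundant in PVN. Dio2 had a median of 203.9 CPM in PFC (lowest library 158.6, highest 280.5) and 185.0 CPM in dCA1 (108.8 to 243.7). The medians in vCA1, dDG and vDG were 142.0 CPM (79.3 to 250.4), 140.0 CPM (81.6 to 205.4) and 118.3 CPM (79.9 to 205.4). The ranges of these 5 cortical and hippocampal regions overlapped. Dio2 reached medians of 93.9 CPM in CER (55.8 to 169.9), 63.8 CPM in AMY (21.2 to 150.2) and 28.1 CPM in PVN (17.7 to 36.6). Every PVN vehicle library was below the lowest library of each other region except AMY. The highest regional median of Dio2 was 7.27-fold the lowest. The set was chosen on the change of Dio2, which is measured against these vehicle libraries, so the regional levels of Dio2 are a description with no test. In the order of medians, the fitted log2 difference was 1.36 ± 0.18 (SE) for AMY over PVN, 0.42 ± 0.15 for vDG over CER and 0.34 ± 0.14 for PFC over dCA1.

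After dexamethasone, Dio2 was higher in all 8 regions, and the difference ran from 0.53 on the log2 scale in PFC to 2.45 in PVN. PVN, the region with the least Dio2 in vehicle animals, went from a median of 28.1 to 128.2 CPM (97.5 to 214.3). Each of the 15 dexamethasone libraries of PVN lay above each of the 14 vehicle libraries, and the log2 fold change was 2.45 ± 0.13 (SE). PFC, the region with the most Dio2 in vehicle animals, went from 203.9 to 322.7 CPM (222.0 to 400.2), and 9 of 14 dexamethasone libraries exceeded the highest vehicle library. Its log2 fold change was 0.53 ± 0.10. The regions at the ends of the vehicle order were also at the ends of the range of differences, 2 quantities that share the vehicle libraries.

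The remaining 6 regions lay between these. AMY reached 184.4 CPM (104.9 to 342.9) with a log2 fold change of 1.48 ± 0.19, and vCA1 reached 368.9 CPM (240.3 to 1135) with 1.47 ± 0.19. The library at 1135 CPM stood apart, and without it the vCA1 value was 1.30 ± 0.15. In vDG the dexamethasone median was 312.7 CPM (173.5 to 529.1; log2 fold change 1.36 ± 0.15), and in CER it was 183.1 CPM (125.9 to 336.3; 1.04 ± 0.14). The dorsal regions had smaller differences than their ventral counterparts, with 276.6 CPM in dDG (178.4 to 400.8; 1.03 ± 0.13) and 310.9 CPM in dCA1 (238.6 to 465.4; 0.87 ± 0.12). Dexamethasone libraries above the highest vehicle library numbered 14 of 15 in vCA1, 13 of 15 in vDG and in dDG, 11 of 15 in AMY, 10 of 13 in dCA1 and 9 of 15 in CER. The ranges of the arms therefore overlapped in each of these 6 regions. Across regions the highest dexamethasone median, in vCA1, was 2.88-fold the lowest, in PVN, where the vehicle medians had spanned 7.27-fold.

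**Figure D1:**
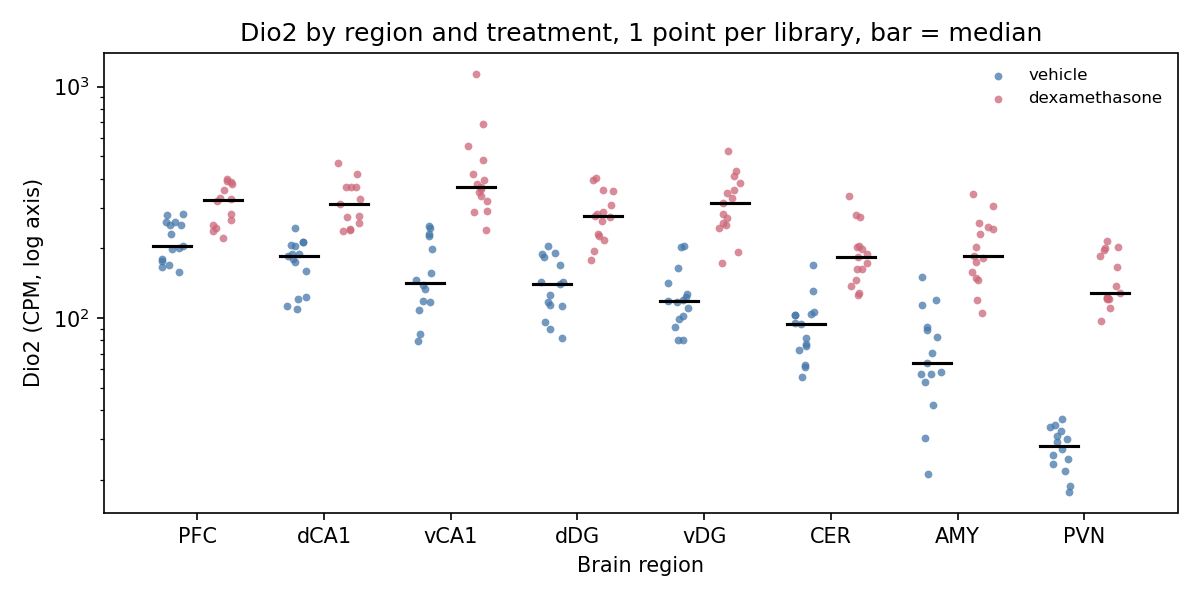
Dio2 in CPM (log axis) in each library of the 8 regions (horizontal axis), with vehicle in blue, dexamethasone in red and black bars at group medians. The PVN vehicle libraries sit lowest, at 17.7 to 36.6 CPM, and do not overlap the PVN dexamethasone libraries at 97.5 to 214.3 CPM.

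Libraries were processed on 4 plates and punched on 5 dates. In these same libraries, on whose Dio2 values the set was chosen, Dio2 was higher after dexamethasone in 32 of 32 region and plate strata (by 0.29 to 2.43, log2) and in 32 of 32 region and date strata (by 0.51 to 2.52), which is a description and no independent support. Markers of astrocytes were also followed, because these cells hold most Dio2. Their summed level had medians of 7127 to 9279 CPM over the 8 vehicle groups and 7146 to 9313 CPM over the dexamethasone groups. The median was lower after dexamethasone in dDG (8303 and 7341 CPM), dCA1 (8792 and 7992 CPM), CER (9279 and 8822 CPM) and PFC (8339 and 7930 CPM). In AMY, PVN, vCA1 and vDG it was slightly higher. Of the 11 astrocyte markers, all tested in each region, Fgfr3 rose in PVN, Aldh1l1 rose and Aqp4 fell in dCA1, and no marker passed in the other 6 regions. With the astrocyte level as a covariate, Dio2 was 2.46 ± 0.12 higher in PVN and 0.51 ± 0.10 higher in PFC. In dDG it was 1.13 ± 0.12 higher, against 1.03 ± 0.13 without the covariate. Tanycyte markers were scarce in PVN, where Rax had a median of 0 CPM in both arms and Gpr50 had medians of 0.849 and 1.17 CPM, and no tanycyte marker could be tested there. In vCA1 the tanycyte marker Col23a1 rose by 0.96 ± 0.24 (edgeR adjusted p = 0.00763), and the 4 listed markers summed to a median of 25.2 CPM (8.81 to 67.0) with vehicle and 47.3 CPM (23.8 to 79.0) with dexamethasone. The part of these markers in the Dio2 value was not tested. In vCA1, 2 of the 4 tested dentate granule cell markers (Dsp and Npnt) rose, and their 7 listed genes summed to a median of 320 CPM (130 to 848) after dexamethasone against 208 CPM (120 to 340) with vehicle. With that level as a covariate, the vCA1 value of Dio2 was 1.52 ± 0.22. In dCA1 the dentate marker Plk5 fell by 0.82 ± 0.19 (edgeR adjusted p = 0.00562), the 1 of 7 to pass, and the list summed to a median of 1194 CPM (565 to 1564) with vehicle and 856 CPM (160 to 1504) with dexamethasone. Its part in the dCA1 values was not tested.

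Slco1c1, the T4 transporter, was lower after dexamethasone in 6 of the 8 regions, the opposite direction to Dio2. The share of all tested genes that passed was 6.18% in CER, 6.14% in PFC, 5.63% in PVN, 5.62% in AMY, 5.45% in vCA1, 4.68% in dCA1, 3.93% in vDG and 3.7% in dDG. Over the 8 regions together it was 5.17% of gene and region tests, with 3.23% higher and 1.94% lower. Slco1c1 fell most in PFC, from a median of 39.2 CPM (25.2 to 61.7) to 20.0 CPM (7.16 to 28.8). Of 14 dexamethasone libraries in PFC, 10 lay below the lowest vehicle library, with a log2 fold change of -1.04 ± 0.15 (edgeR adjusted p = 1.88e-06). In PVN, Slco1c1 fell from 25.0 CPM (15.8 to 36.0) to 13.3 CPM (8.68 to 18.5). There, 11 of 15 dexamethasone libraries were below every vehicle library, and the log2 fold change was -0.80 ± 0.13 (edgeR adjusted p = 2.2e-05).

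In CER, Slco1c1 went from 29.3 CPM (9.63 to 46.3) to 15.0 CPM (7.02 to 31.5), a log2 fold change of -0.81 ± 0.18 (edgeR adjusted p = 0.00207). In vCA1 it went from 38.8 CPM (17.8 to 72.3) to 23.7 CPM (11.1 to 51.0), a change of -0.72 ± 0.18 (edgeR adjusted p = 0.00917). In AMY it went from 29.8 CPM (18.7 to 56.0) to 18.4 CPM (9.09 to 36.8), a change of -0.62 ± 0.18 (edgeR adjusted p = 0.0242). The arms overlapped in these 3 regions, most widely in CER, where 2 dexamethasone libraries were below the vehicle range. In vDG, Slco1c1 went from 29.1 CPM (15.5 to 43.9) to 16.7 CPM (6.61 to 27.8), with -0.66 ± 0.16 (edgeR adjusted p = 0.00829). Without the 7 vDG libraries that held Gabra6 above 10 CPM, the value was -0.50 ± 0.17 and did not pass (edgeR adjusted p = 0.106, against 0.00343 to 0.106 over all alternatives). The dorsal hippocampal regions did not pass. In dCA1 the median was 35.4 CPM (10.6 to 72.7) with vehicle and 17.0 CPM (10.3 to 42.8) with dexamethasone, a log2 fold change of -0.65 ± 0.21 (edgeR adjusted p = 0.0755), and with the RNA integrity number as a covariate it was -0.63 ± 0.20 (edgeR adjusted p = 0.0471, with 0.0471 to 0.0788 over all alternatives). In dDG it was 28.5 CPM (22.5 to 101.8) and 17.5 CPM (7.02 to 82.2), with -0.75 ± 0.27 (edgeR adjusted p = 0.14), and with the replicate number as a block it was -0.83 ± 0.22 and passed (edgeR adjusted p = 0.0197, with 0.0197 to 0.151 over all alternatives). A test of whether the Slco1c1 change differed among the 8 regions did not pass (edgeR interaction, adjusted p = 1 with or without the animal as a block), while 1.17% of the 11053 genes tested did.

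Among vehicle animals, Slco1c1 varied little between regions, with the highest median (PFC) 1.57-fold the lowest (PVN). It differed in 9 of the 28 pairs of regions (edgeR with the animal as a block), a share near the 31.4% of all gene and pair tests. In the order of medians, dDG over PVN was the one neighbouring pair that passed, at 0.65 ± 0.18 on the log2 scale (edgeR adjusted p = 0.00213, a pair in which 43.3% of genes passed). Slco1c1 was lower after dexamethasone in 32 of 32 plate strata and 32 of 32 date strata, although the smallest differences were only -0.05 and -0.0034.

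The list of other thyroid hormone transporters held 5 genes, of which 4 were tested in at least 1 region, and gave 8 lower and 0 higher calls in 29 gene and region tests (27.6%), with a median log2 fold change between -0.35 and -0.02 over the regions. All 8 calls were of Slco1a4, an organic anion transporter of brain endothelium that carries T4 among other substrates. Slco1a4 fell in 8 of 8 regions, by 0.62 in vCA1 to 0.93 in dDG on the log2 scale, and its largest edgeR adjusted p was 0.00353. In dDG it had medians of 97.0 CPM (59.5 to 135.8) and 51.9 CPM (24.1 to 74.0), and in PVN of 100.1 CPM (75.6 to 134.0) and 65.1 CPM (48.1 to 96.1). The arms thus overlapped in both regions.

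Markers of endothelium, where both falling transporters are found, moved in both directions. Of 10 listed markers 7 were tested in each region, and of these Pecam1, Esam and Ly6c1 passed in no region. Kdr and Flt1, the receptors for vascular endothelial growth factor, fell in 8 of 8 regions, and Slc2a1, the glucose transporter of the barrier, rose in 8 of 8. Itm2a, a membrane protein gene of endothelium, fell in PFC, dDG and vCA1. In PFC, Kdr changed by -1.70 ± 0.15, Flt1 by -0.60 ± 0.08, Itm2a by -0.56 ± 0.11 and Slc2a1 by 1.26 ± 0.11. Over the regions Kdr fell by 1.26 to 2.13. The summed level of the list had medians of 404 to 541 CPM over the vehicle groups and 425 to 591 CPM over the dexamethasone groups. P2ry12, a purine receptor gene of microglia, fell in 8 of 8 regions, by 0.70 (PFC) to 1.17 (dCA1), and was the 1 listed microglial marker to pass in each region, of 5 or 6 tested. In vCA1, Ttr, the transthyretin gene that marks choroid plexus, fell by 2.27 ± 0.56 (edgeR adjusted p = 0.00692) and was the 1 choroid plexus marker tested there. The 6 listed choroid plexus markers summed in vCA1 to a median of 53.3 CPM (25.8 to 1469) with vehicle and 36.9 CPM (23.3 to 103.8) with dexamethasone. The part of the endothelial, microglial and choroid plexus markers in the Slco1c1 and Slco1a4 values was not tested.

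**Figure D2:**
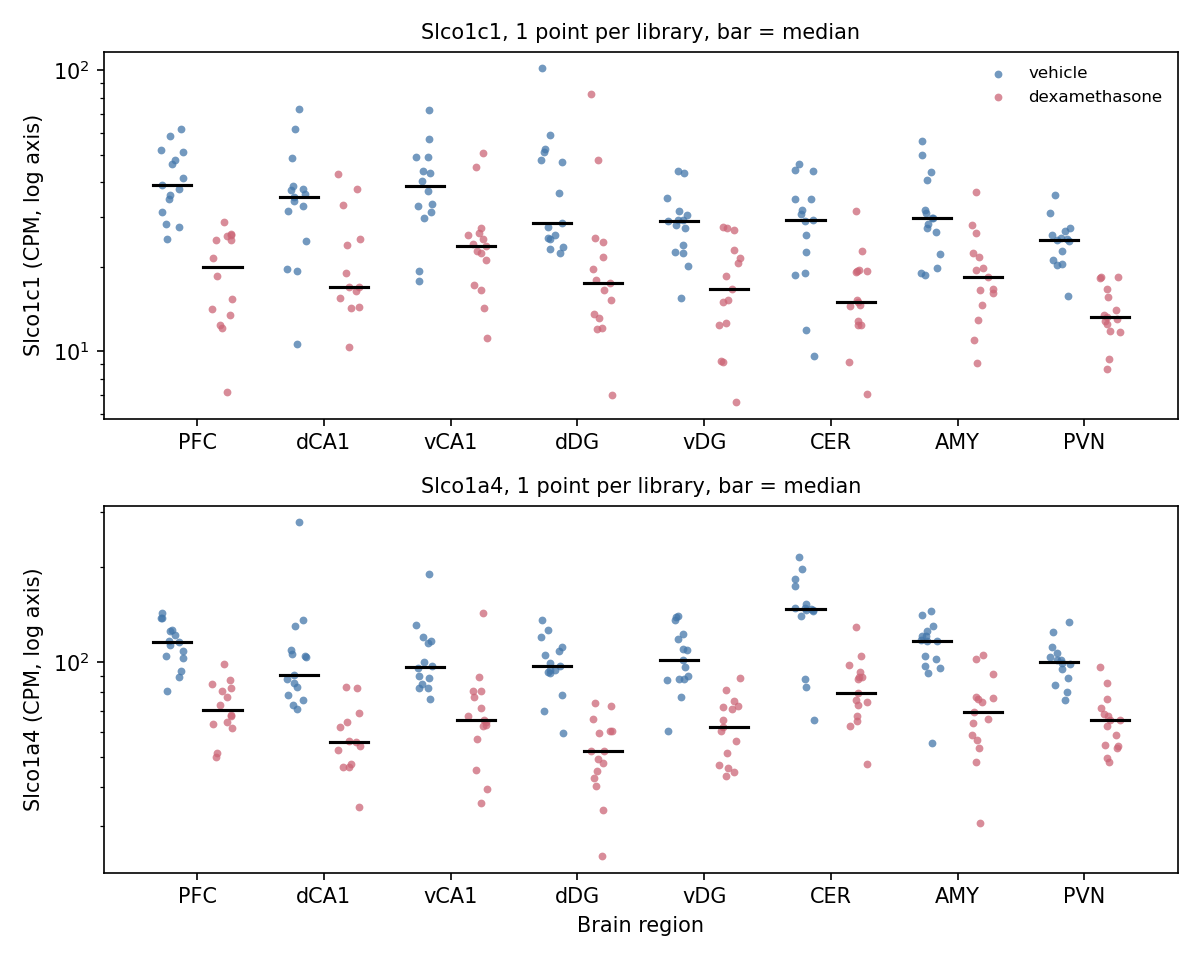
Slco1c1 (top) and Slco1a4 (bottom) in CPM (log axes) in each library by region, with vehicle in blue, dexamethasone in red and black bars at medians. Slco1c1 medians are 25.0 to 39.2 CPM with vehicle and 13.3 to 23.7 CPM with dexamethasone, and the arms overlap in every region.

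The receptors for T3 showed no change that passed the test. Thra (ENSMUSG00000058756, chromosome 11, 98740638-98769006, plus strand) encodes the predominant thyroid hormone receptor of the brain, and Thrb (ENSMUSG00000021779, chromosome 14, 17660960-18038088, plus strand) encodes the second receptor. In 8 regions each, no test of either passed (edgeR adjusted p from 0.372 to 0.98), and 0 of the 16 had an unadjusted p under 0.05. The largest Thra value was in PVN, where the median was 648.8 CPM (522.7 to 917.8) with vehicle and 687.8 CPM (612.1 to 1018) with dexamethasone, a log2 fold change of 0.15 ± 0.08 (95% interval -0.0040 to 0.31). The arms overlapped almost entirely, with 2 dexamethasone libraries above the vehicle range. Over the 8 regions the 95% intervals of Thra lay between -0.27 and 0.31. Thrb had its largest value in PVN as well, at 0.16 ± 0.11, and its intervals lay between -0.32 and 0.46. Neither receptor passed the test for a difference in change among regions (edgeR interaction, adjusted p = 1 for each, with or without the animal as a block).

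Differences between regions were larger than those between arms for both receptors. Vehicle medians of Thra were 1211 CPM in vCA1 (855 to 1657), 1165 CPM in dCA1 (931 to 1780), 1065 CPM in PFC (847 to 1273) and 945 CPM in vDG (641 to 1079). They were 863 CPM in dDG (707 to 1164), 816 CPM in AMY (742 to 1032), 649 CPM in PVN and 636 CPM in CER (525 to 945). The steps that passed in this order were PFC over vDG by 0.25 ± 0.08 (edgeR adjusted p = 0.0115, with 28.7% of genes passing) and AMY over PVN by 0.35 ± 0.08 (edgeR adjusted p = 0.000538, with 21.0%). Thra differed in 21 of the 28 pairs of regions, where 31.4% of all gene and pair tests passed. For Thrb, PFC stood above the rest, with a vehicle median of 128.1 CPM (71.9 to 155.7) against 84.7 CPM in vCA1 (54.1 to 106.3), the next in order. That step was 0.64 ± 0.12 (edgeR adjusted p = 1.02e-05, a pair in which 16.6% of genes passed), and no other neighbouring pair passed. The lowest Thrb median was 41.4 CPM in CER (28.4 to 71.6), and 19 of 28 pairs passed, beside the same 31.4% of all tests.

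Thra overlaps Nr1d1, the gene of the circadian repressor REV-ERB alpha, on the opposite strand. They share 263 exon bases, 5.7% of those of Thra, and the strand setting of the counting is not given in the sources used here, so their reads cannot be told apart at those bases. Nr1d1 had 8125 counts over all libraries and Thra had 162412. Nr1d1 fell in CER by 0.46 ± 0.13 on the log2 scale (edgeR adjusted p = 0.0205), and its values in the other regions lay between -0.41 and -0.28 and did not pass. In PVN it passed when 1 dexamethasone library was left out (-0.44 ± 0.12, edgeR adjusted p = 0.0197). Dio2 shares 100 exon bases, 1.72% of its own, with Gm26512 on the opposite strand, a gene with 474 counts against 34307 for Dio2.

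Crym (ENSMUSG00000030905, chromosome 7, 120186380-120202111, minus strand) encodes mu-crystallin, the cytosolic protein that binds T3. It rose in dDG alone of the 7 regions where it could be tested, from a median of 117.0 CPM (63.0 to 208.2) to 187.7 CPM (113.8 to 305.0). The log2 fold change was 0.66 ± 0.14 (edgeR adjusted p = 0.00264), with 6 of 15 dexamethasone libraries above the vehicle range. In dCA1 the medians were 166.6 CPM (75.8 to 233.7) and 203.2 CPM (139.9 to 263.3), with 0.33 ± 0.13 (edgeR adjusted p = 0.185). In CER the medians were 15.8 CPM (5.78 to 228.5) and 18.3 CPM (6.22 to 63.5), yet the fitted log2 fold change was -0.94 ± 0.41 (edgeR adjusted p = 0.238). The medians and the fitted value in CER had opposite signs. The remaining 4 tested regions lay between -0.25 and 0.21. A difference among regions in the Crym change did not pass (edgeR interaction, adjusted p = 0.168, and 0.36 with the animal as a block, with 0.0998 to 0.36 over all alternatives), so the dDG value is not shown to differ from the others. In dDG, the 7 dentate granule cell markers summed to a median of 944 CPM (174 to 1924) with vehicle and 1131 CPM (122 to 1549) with dexamethasone, and the 6 choroid plexus markers to 1329 CPM (48.4 to 11725) and 284 CPM (54.1 to 13467). None of the 7 and 2 markers tested there passed, and their part in the Crym value was not tested.

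Crym had the widest ratio of regional medians among the 6 genes. Vehicle medians fell from 365.2 CPM in vCA1 (163.3 to 600.8) and 244.2 CPM in vDG (70.6 to 448.2) to 172.9 CPM in PFC (91.8 to 255.0) and 166.6 CPM in dCA1. They were 117.0 CPM in dDG, 82.8 CPM in AMY (19.5 to 349.2), 15.8 CPM in CER and 9.67 CPM in PVN (3.56 to 16.6). The highest was 37.8-fold the lowest, and 22 of the 28 pairs passed, beside 31.4% of all gene and pair tests. The steps that passed in this order were AMY over CER, by 1.27 ± 0.29 (edgeR adjusted p = 0.00024, a pair in which 25.8% of genes passed), and CER over PVN, by 2.01 ± 0.39 (edgeR adjusted p = 1.86e-05, with 24.6%). In PVN, Crym stayed below the filter on low counts, with a dexamethasone median of 9.49 CPM (1.34 to 84.3).

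**Figure D3:**
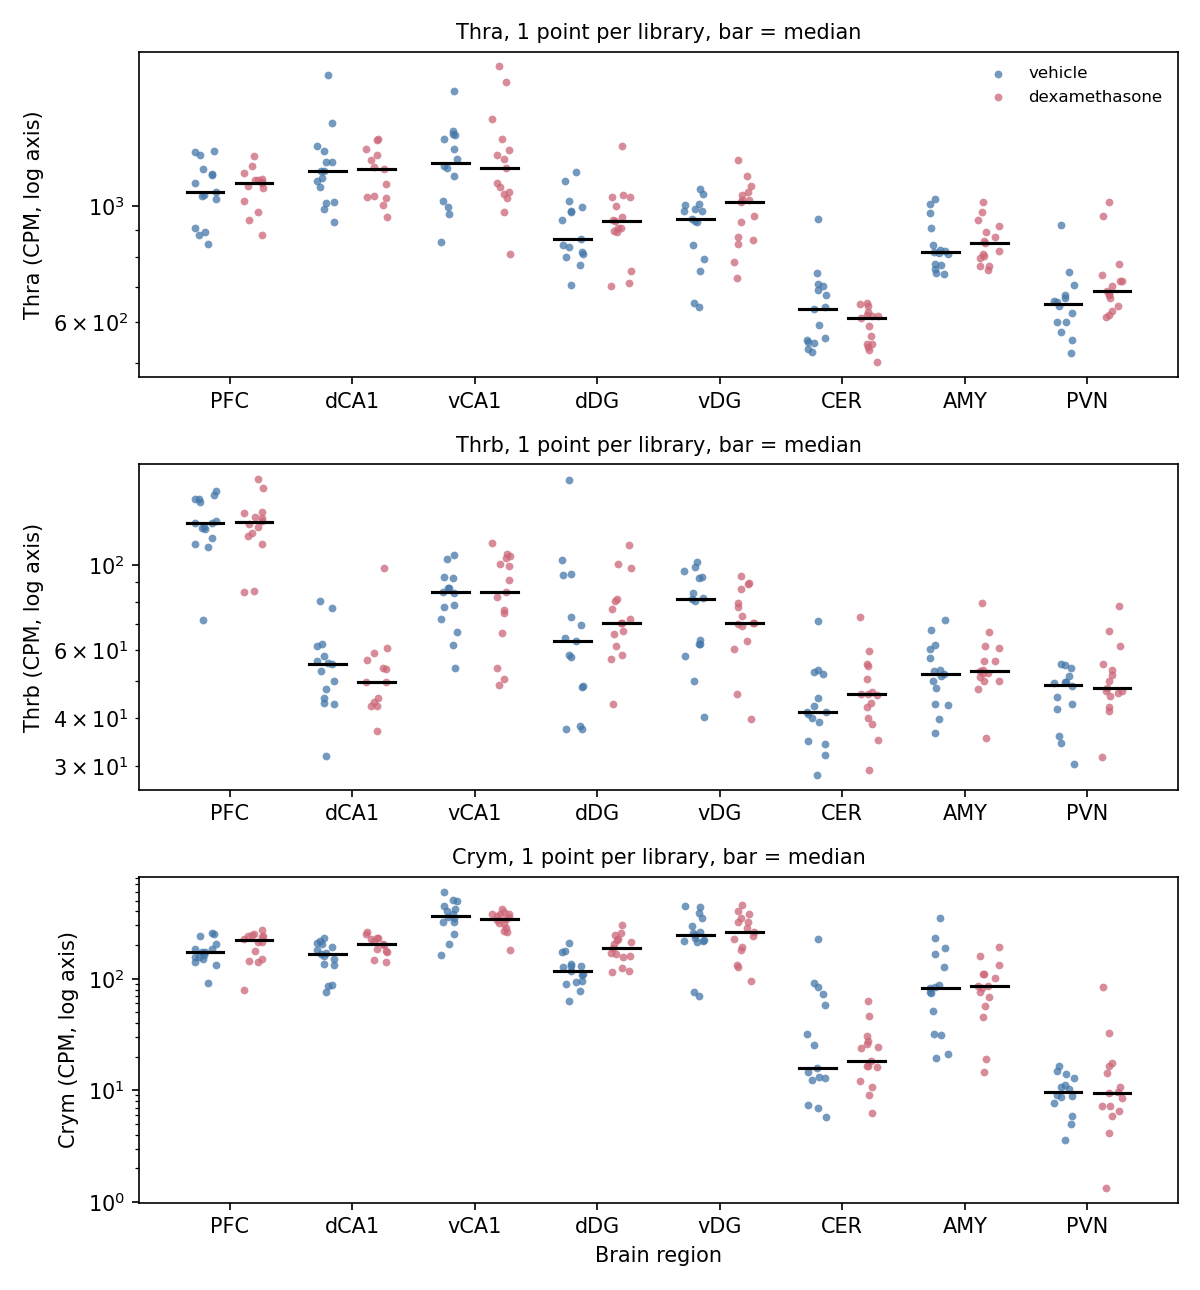
Thra, Thrb and Crym (top to bottom) in CPM (log axes) in each library by region, with vehicle in blue, dexamethasone in red and black bars at medians. Crym medians with vehicle span 9.67 CPM in PVN to 365.2 CPM in vCA1, and the arms of Thra and Thrb overlap in every region.

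Hr (ENSMUSG00000022096, chromosome 14, 70552212-70573548, plus strand) encodes Hairless, a nuclear corepressor that binds thyroid hormone receptors and whose gene is induced by T3 in brain. It rose in AMY, CER, PVN and vDG, the 4 regions in which it passed the filter on low counts. The filter counts libraries of either arm, so Hr passed it partly through the dexamethasone libraries, and the tests were repeated on all genes with no filter. The change of Hr differed among the 8 regions (edgeR interaction, adjusted p = 0.00042, and 7.7e-05 with the animal as a block).

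In CER, Hr had a median of 30.0 CPM (19.9 to 46.3) with vehicle and 105.7 CPM (77.5 to 198.1) with dexamethasone. The arms did not overlap there, and the log2 fold change was 1.75 ± 0.13 (edgeR adjusted p = 4.07e-14). In PVN the medians were 32.6 CPM (15.9 to 92.9) and 171.2 CPM (10.9 to 305.4), with 1.90 ± 0.23 (edgeR adjusted p = 2.79e-08). There, 12 of 15 dexamethasone libraries exceeded every vehicle library and 1 lay below all of them. That library, dexamethasone replicate 4, set the lower end of the range, and without it the value was 1.98 ± 0.20. It came from the same animal as the vCA1 library with the highest Dio2. In AMY the medians were 11.4 CPM (4.25 to 45.4) and 62.7 CPM (11.3 to 142.7), with 1.98 ± 0.32 (edgeR adjusted p = 1.54e-05). The AMY arms overlapped, with 9 of 15 dexamethasone libraries above the vehicle range. In vDG the medians were 13.6 CPM (5.18 to 33.5) and 32.3 CPM (5.75 to 97.2), with 1.32 ± 0.35 (edgeR adjusted p = 0.0187). The vDG arms overlapped, with 7 of 15 dexamethasone libraries above the vehicle range. Without the 7 libraries with Gabra6 the value was 1.08 ± 0.33 and did not pass (edgeR adjusted p = 0.073, against 0.00549 to 0.073 over all alternatives).

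The other 4 regions had little Hr in either arm. The medians were 9.19 CPM (2.30 to 24.3) and 9.68 CPM (3.62 to 44.6) in PFC, and 10.6 CPM (2.97 to 17.1) and 11.1 CPM (5.93 to 26.9) in dCA1. In vCA1 they were 6.80 CPM (1.59 to 40.8) and 8.29 CPM (1.62 to 28.3), and in dDG 9.38 CPM (3.55 to 23.1) and 13.6 CPM (6.36 to 47.7). The arms overlapped in all 4. Dexamethasone libraries above the vehicle range numbered 5 of 15 in dDG, 2 of 14 in PFC, 2 of 13 in dCA1 and 0 of 15 in vCA1. In dDG and in PFC, Hr was higher in 4 of 4 plate strata and 4 of 4 date strata, against 2 or 3 of 4 in dCA1 and vCA1. With no filter, the log2 fold changes were 0.21 ± 0.28 in PFC, 0.26 ± 0.23 in dCA1, -0.0066 ± 0.32 in vCA1 and 0.92 ± 0.30 in dDG, and none passed (edgeR adjusted p from 0.102 to 0.995). The same fit called Hr in the 4 other regions, with edgeR adjusted p of 1.48e-15 in CER, 1.3e-09 in PVN, 2.82e-06 in AMY and 0.0148 in vDG.

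In vehicle animals Hr was highest in PVN and CER, which did not differ (0.31 ± 0.21 on the log2 scale, edgeR adjusted p = 0.298). CER exceeded vDG, the next region, by 1.20 ± 0.24 (edgeR adjusted p = 1.71e-05, a pair in which 40.4% of genes passed). No lower neighbouring pair passed, and 13 of 28 pairs passed in all, beside 31.4% of all gene and pair tests. The highest median was 4.78-fold the lowest with vehicle and 20.7-fold with dexamethasone, from vCA1 to PVN in both arms. Neuronal markers, of which all 8 were tested in each region, gave 0 calls in 64 edgeR tests, 2 of them at an unadjusted p under 0.05, and 0 calls with DESeq2. Oligodendrocyte markers fell in AMY (Ermn and Mog, of 7), and Ermn alone fell in CER, PVN and vCA1. Their summed level in PVN had medians of 3572 CPM (2886 to 5428) with vehicle and 3369 CPM (1624 to 5101) with dexamethasone. The summed medians with vehicle and dexamethasone were 6647 and 6118 CPM in AMY, 9089 and 9035 CPM in CER, 3228 and 2295 CPM in vCA1, and 3196 and 2210 CPM in dDG, where no marker of the list passed. The part of this list in the vCA1 and dDG values of the other genes was not tested. Of the dentate granule cell markers, Prox1 fell in 3 of the regions where Hr rose, by 1.04 ± 0.14 in CER, 0.47 ± 0.13 in AMY and 0.35 ± 0.11 in PVN. None of the 3 is a dentate region by its label. Prox1 was the 1 marker of its list to pass there, of 4 tested in CER, 3 in AMY and 4 in PVN. Plk5, of the same list, was at 0.36 in CER and did not pass. The summed medians of that list were 233 and 178 CPM in CER, 220 and 193 CPM in AMY, and 222 and 211 CPM in PVN, for vehicle and dexamethasone. The part of these markers in the Hr values was not tested.

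**Figure D4:**
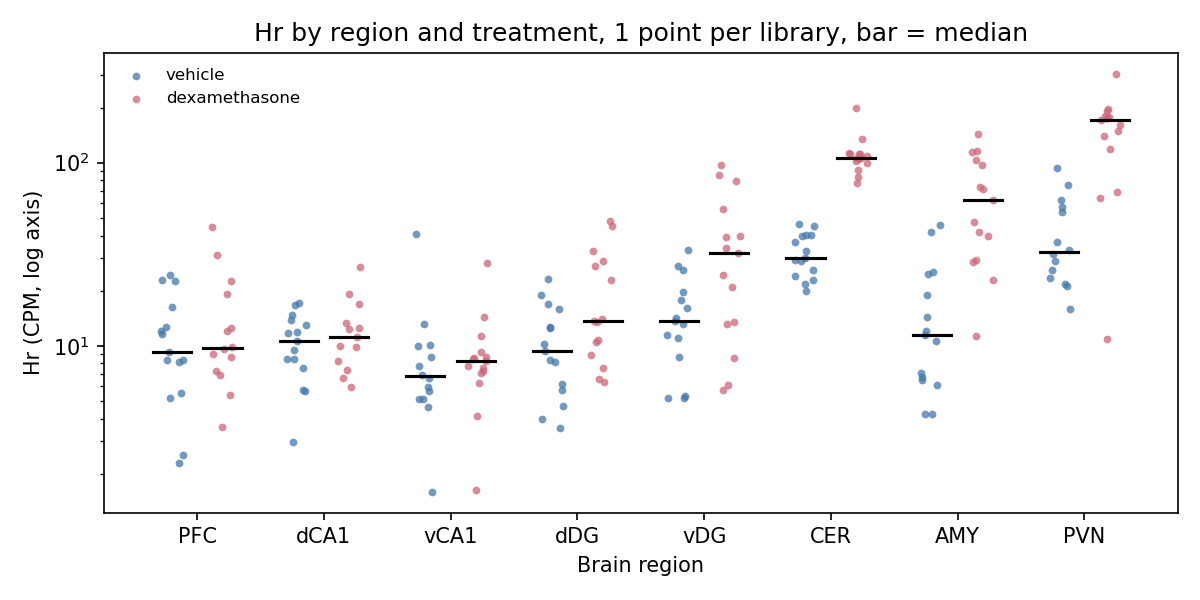
Hr in CPM (log axis) in each library of the 8 regions, with vehicle in blue, dexamethasone in red and black bars at group medians. The arms separate fully in CER, and 1 PVN dexamethasone library at 10.9 CPM lies below the PVN vehicle range of 15.9 to 92.9 CPM.

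Set side by side without a test of their order, PVN had the largest difference of Dio2 and the second largest of Hr, whereas AMY had the largest of Hr, by less than the standard error of either Hr value. PFC had the smallest difference of Dio2 and the largest fall of Slco1c1, with Hr at 9.68 CPM after dexamethasone, although the Slco1c1 change was not shown to differ among regions. Other regions were ordered otherwise. In vCA1 the difference of Dio2 was 1.47 ± 0.19, while that of Hr was -0.0066 ± 0.32 with no filter. In CER the difference of Dio2 was 1.04 ± 0.14 and that of Hr was 1.75 ± 0.13. Whether the changes of Dio2 and Hr go together by region was not tested. These values come from the same libraries and share the same vehicle animals within a region.

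**Figure D5:**
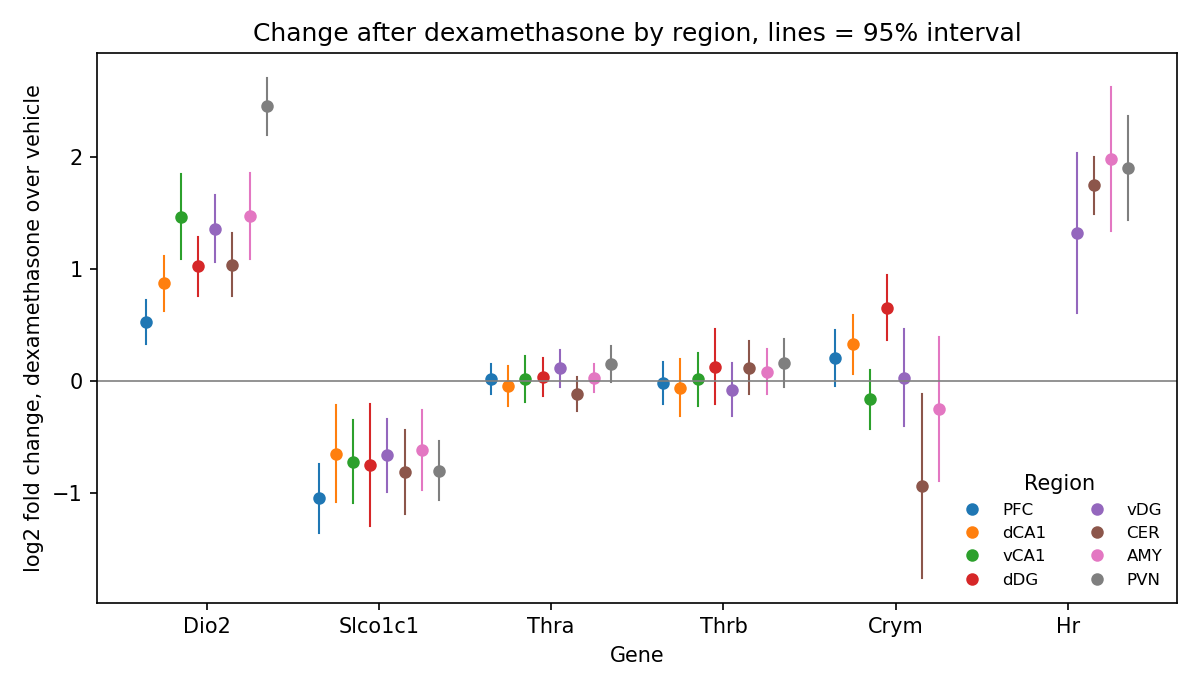
Log2 fold change of dexamethasone over vehicle (vertical axis) for each gene (horizontal axis) in each region where it was tested (colours), with points at the estimate and lines for the 95% interval. Dio2 lies above 0 and Slco1c1 below 0 in each region, Thra and Thrb lie near 0, and Hr is shown for the 4 regions in which it passed the filter.

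The wider pathway was followed with 44 further genes in 5 lists by role. Of these, 38 were tested in at least 1 region, giving 266 gene and region tests, of which 12 were higher and 8 lower (7.52%, against 5.17% of all tests). Among targets of thyroid hormone in brain, 13 of 15 were tested, and all 8 calls in 76 tests were of Klf9. This transcription factor gene is induced by T3 and also directly by the glucocorticoid receptor. Klf9 rose in 8 of 8 regions, from 0.36 ± 0.07 in dDG to 0.59 ± 0.09 on the log2 scale in vDG (largest edgeR adjusted p = 0.00195). In vDG its medians were 572.3 CPM (404.2 to 786.8) and 849.7 CPM (757.0 to 1087), with slightly overlapping arms. The median log2 fold change of the target list lay between -0.13 and 0.10 over the regions, and that of all genes tested between -0.02 and 0.0013. Trh, the gene of thyrotropin-releasing hormone, was tested in PVN only and did not pass, at 0.28 ± 0.33 (edgeR adjusted p = 0.826). It is named here after its values were seen.

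Receptor partners and coregulators gave 3 higher and 0 lower calls in 89 tests (3.37%), with regional medians between -0.07 and 0.07. Nrip1, a corepressor of nuclear receptors, rose in PFC by 0.32 ± 0.09 (edgeR adjusted p = 0.0117) and in PVN by 0.34 ± 0.10 (edgeR adjusted p = 0.0204). Ncoa1, a coactivator, rose in PVN by 0.25 ± 0.08 (edgeR adjusted p = 0.0373), a call lost with upper-quartile scaling (edgeR adjusted p = 0.0667) or with no filter (0.0799). The list of deiodinases and selenoprotein synthesis gave 1 call in 40 tests (2.5%), with regional medians between -0.08 and 0.17. Selenop, the selenium carrier protein gene, rose in vCA1 by 0.34 ± 0.09 (edgeR adjusted p = 0.0204). That call was lost with the replicate block (edgeR adjusted p = 0.0587), with plate and date as factors (0.0507) and when the dentate level was a covariate (0.126). Genes for turnover of the deiodinase protein by ubiquitin gave 0 calls in 32 edgeR tests, 0 at an unadjusted p under 0.05 and 0 with DESeq2. The other deiodinases were scarce. Dio1 had a median of 0 CPM in every group. Dio3, whose enzyme inactivates T4 and T3, reached its highest medians in vDG, at 2.35 CPM with vehicle (0 to 8.24) and 3.31 CPM with dexamethasone (0 to 6.18), and passed the filter in no region.

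Genes whose levels followed Dio2 between vehicle animals were ranked by Pearson r over all vehicle libraries, after centring each region, among the 11515 genes that averaged 5 CPM or more. The highest were Slc1a2 (r = 0.71), the astrocyte glutamate transporter, Ppp2r2c (0.66), Fbxl16 (0.65), Chst2 (0.65) and Wdr13 (0.63). Of the genes in the set, Slco1c1 had r = 0.35 with Dio2, Crym 0.25, Thra and Thrb 0.23 each, and Hr -0.17. Slco1c1 itself was most like Prom1 (0.53), Pbxip1 (0.50) and Flt1 (0.50). These are descriptions, since libraries of 1 animal, plate or punch share their tissue makeup and RNA quality. Slc1a2, first in the Dio2 ranking, had log2 fold changes after dexamethasone between -0.24 and -0.02 over the 8 regions and passed in none.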

How the data were processed

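RNA of each punch was made into 3′ end libraries with unique molecular identifiers (QuantSeq forward), per the labels' protocols. The authors deposited raw counts of 27998 genes in all libraries, and no other table was used here. FastQC 0.11.4, cutadapt, UMI-tools 0.5.4, STAR 2.6.0a, featureCounts 1.6.4, DESeq2 1.30.1, R 4.0.5 and mm10 are named in the submitters' processing notes. The strand setting is not given in the sources used here. Totals were 268538 to 1451422 counts per library, which limits genes below about 10 CPM.

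Counts were tested with edgeR 4.0.16 (filterByExpr by arm, TMM, quasi-likelihood F test) in R 4.3.3, for each region separately without covariates. Benjamini-Hochberg adjustment covered every gene tested in a region, at a threshold of 0.05. A difference of the change among regions was tested as an interaction over all libraries with 1 mean per region and arm, and vehicle levels as 28 pairs of regions in 1 fit with the animal as a block. Standard errors are the absolute log2 fold change over the square root of F. Libraries of 1 region came from different animals, while regions share animals. Differences within plates and dates are of mean log2(CPM + 1), with at least 2 libraries per arm. On simulated data with a log2 change of 1, the test recovered 98% of 200 changed genes in PVN (9288 genes tested), 97.9% of 192 between vehicle PFC and PVN (10382 genes) and 79.4% of 194 in the interaction (10837 genes). False calls made up 4.39%, 4.57% and 7.23% of the calls, in the same order, which for the interaction is above the nominal 0.05. The simulated counts had the same dispersion for every gene and no animal or plate effect. These shares therefore do not describe genes that vary more between libraries, or regions that share animals.

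The genes and lists were chosen with earlier results of these data known. Named beyond the 6 genes are every gene of the pathway lists past the threshold in a region, Dio1, Dio3, Nr1d1, the genes most like Dio2 and Slco1c1 in vehicle animals, and markers beside the results they move with, and 1 further gene of that rule is not reported here. Same-numbered libraries of the arms shared a plate in 115 of 115 pairs and a punching date in 109, per the labels, and the median correlation of their deviations was 0.05 (vCA1) to 0.21 (PFC) over the regions. Alternatives were DESeq2 1.42.0, upper-quartile and DESeq2 scaling in edgeR, no filter, plate and date, RNA integrity number (RIN), the replicate block, and covariates or omitted libraries added after seeing the data. RefSeq promoter windows of GRCm38.p6 were searched on both strands. Coordinates are those of the count table, of which 99.9% of 27645 shared identifiers overlapped their GENCODE M21 position on GRCm38.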

Additional observations from a re-analysis of the deposited data

Results flagged for a closer look

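The change of Hr after dexamethasone differed among the 8 regions (edgeR interaction over all libraries, adjusted p = 0.00042). The log2 fold changes were 1.98 ± 0.32 in AMY, 1.90 ± 0.23 in PVN, 1.75 ± 0.13 in CER and 1.32 ± 0.35 in vDG, and with no filter -0.0066 ± 0.32 in vCA1, 0.21 ± 0.28 in PFC, 0.26 ± 0.23 in dCA1 and 0.92 ± 0.30 in dDG. The interaction passed in each alternative run, with an adjusted p of 7.7e-05 with the animal as a block, 0.000431 with upper-quartile scaling, 0.000477 with no filter and 0.000783 without the libraries holding Gabra6.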

How the results depend on the processing

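Slco1a4 and Klf9 kept their direction and their call in all settings run, and Nrip1, Crym, Thra and Thrb kept their side of the threshold in each region. No called value changed sign. Values near 0 that did not pass did change sign, those of Thra in dCA1 and vCA1, Crym in vDG, Nrip1 in vCA1 and Ncoa1 in CER (Thra in vCA1 from 0.02 to -0.03 with plate and date as factors). Slco1c1 kept its call in 60 of 63 combinations, Hr in 30 of 31, and the exceptions are given with their values above. The number of genes called in dDG was 316, and 511 with DESeq2 and 543 with the replicate block. In vCA1 it was 497, and 291 when the dentate level was a covariate. The list of deiodinases and selenoprotein synthesis had 1 call, which became 2 with DESeq2, with no filter, with plate and date as factors and with the replicate block, and 3 with RIN as a covariate. These calls were of Selenop, which passed in dCA1 in 5 settings and in PFC in 3. The causes were not tested. Blocking on the replicate number, which marks a shared plate, was run over all genes. It is reported gene by gene for the set, the 5 called pathway genes and Nr1d1. Among their tests it changed the calls of Slco1c1 in dDG and of Selenop in dCA1, PFC and vCA1 and no other. Values of single marker genes with this block are not reported here. Groups had 13 to 15 libraries, so no library was left out in turn. Hr in 4 regions and Crym in PVN lay below the filter at this depth, and a change there was not detectable with the main test.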
